A study of Mus musculus with 8 samples.

Results

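Retinoic acid signalling in the embryonic striatal primordium was followed through 9 genes of its synthesis, clearance, binding and reception. The genes were picked by name, with earlier results on these data already known: Aldh1a3, Dhrs3, Crabp1, Crabp2, Rara, Rarb, Rxra, Rxrb and Rxrg. All 9 were present among the 16913 genes of the authors' deposited table. The tissue was the lateral ganglionic eminence (LGE), dissected from mouse embryos of embryonic day 14.5 on a mixed C57BL/6J and CD1 strain background. The 4 control samples came from littermates of genotype Dlx5/6-Cre;Meis2F/+, which carry the Cre driver and a single floxed Meis2 allele and so are not wild type. The 4 mutant samples, Meis2-CKO, were Dlx5/6-Cre;Meis2F/F. All groups therefore carry Dlx5/6-Cre, which acts in Dlx-expressing cells of the ventral forebrain. Cells of the dissected tissue outside that lineage keep intact Meis2 alleles. Nothing in the labels gives the sex of the embryos or says whether a sample is 1 embryo or a pool.

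Retinoic acid is a small signalling molecule made from vitamin A in steps: retinol is oxidised to retinaldehyde, and retinaldehyde dehydrogenases such as the Aldh1a enzymes oxidise that to retinoic acid. Inside a cell it is carried by cellular retinoic acid binding proteins (the Crabp genes) and acts through nuclear receptors. A retinoic acid receptor (RAR) pairs with a retinoid X receptor (RXR), and the pair sits on DNA at a repeated hexamer, the retinoic acid response element. Retinoic acid promotes the differentiation of striatal projection neurons, and RARβ and RXRγ, the products of Rarb and Rxrg, are known for their expression in the striatum.

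The values are the authors' mean expression signal per genotype, with a log2 fold change, positive where Meis2-CKO is higher, and a p-value. The file header names no unit. The signal behaves as if scaled by gene length: across 5 bins of protein-coding genes the median exon length went from 1743 to 10066 nt while the median control signal went from 9.44 to 14.2. Levels of different genes are compared on that scale. "Fell" is used only where the authors' adjusted p is under 0.05. The genotype means come without a spread, so neighbouring levels cannot be placed beyond or within the variation between embryos, and sequencing depth is unknown.

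Of the 9 genes, 4 fell in Meis2-CKO and none rose, in the authors' deposited table. The 4 were Aldh1a3, Crabp1, Rarb and Rxrg: 1 enzyme, 1 binding protein and 1 member of each receptor family. Over all 16913 genes 0.544% were called lower and 0.237% higher. Among the 9229 protein-coding genes whose control mean lay within the range of the 9 genes (1.19 to 39.8), 0.347% were called lower. The log2 fold changes split cleanly: those of the 4 fallen genes lay between -3.06 and -2.29, and those of the other 5 between -0.05 and 0.13. The median of all 9 was -0.05, beside 0.01 for all genes of the authors' deposited table. Earlier results on these data were known when the genes were chosen, so these counts are a description.

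**Figure D1:**
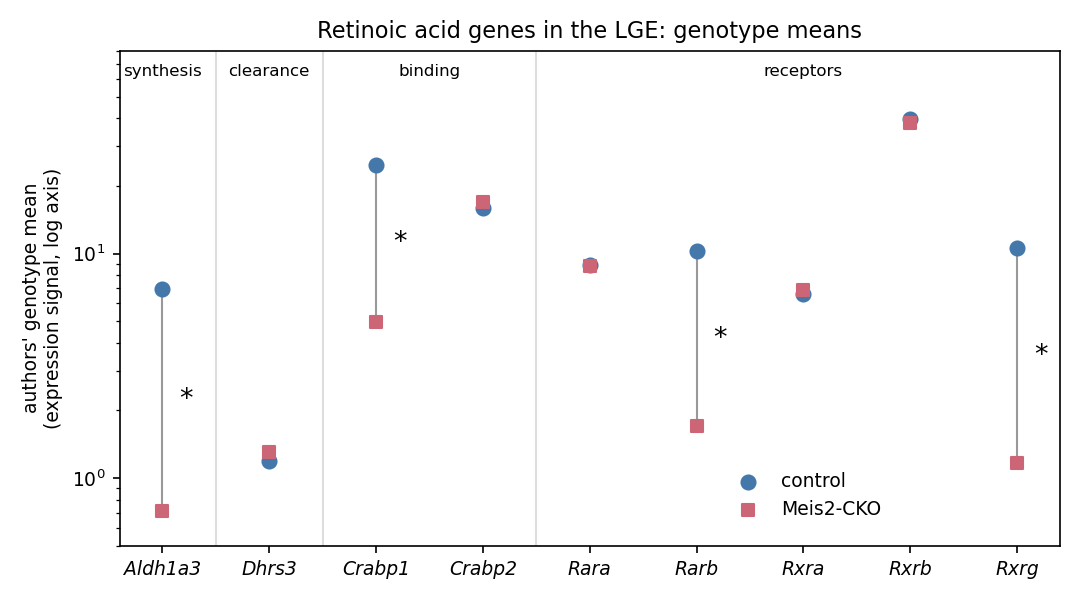
Authors' genotype mean (expression signal, log axis) of the 9 genes, ordered by role; circles are control, squares Meis2-CKO, grey lines join the 2 means of a gene, and asterisks mark an authors' adjusted p under 0.05. The means of Aldh1a3, Crabp1, Rarb and Rxrg lie far apart, while those of the other 5 genes nearly coincide.

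The response element of Rarb is shown first, because Rarb is both a receptor gene and a classic target of retinoic acid. RefSeq promoter windows (250 bases before to 50 bases after a transcript start, GRCm38.p6) were matched by symbol for 7 of the 9 genes, with 15 starts among them. They were searched on both strands for the receptor hexamer, in the forms AGGTCA or AGTTCA or GGGTCA or GGTTCA, and for direct repeats of it spaced by 1, 2 or 5 bases (DR1, DR2 and DR5). A direct repeat with 5 bases between hexamers stood at positions -53 to -37 of the Rarb start, at chr14:16575513-16575529 on the minus strand. It is printed 5′ to 3′ in gene direction from chr14:16575507-16575535, with both hexamers in capitals; GENCODE transcripts that start further upstream place it in their 5′ untranslated exon.

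Rarb response element: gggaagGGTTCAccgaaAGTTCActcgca

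A DR5 of these hexamers was rare: 0.0974% of 32851 promoter windows held one, and Rarb was the single gene of the 7 that did. No DR1 or DR2 was found in the 15 windows, against 0.222% and 0.268% of all windows. Single receptor hexamers were common, in 6 of the 15 windows (Rara, Rarb, Rxra and Rxrg) and in 43.7% of all windows. The fallen receptor gene Rxrg has 2 starts in RefSeq, both with hexamers but without a repeat at these spacings. Both are printed with the hexamers in capitals, from chr1:167598112-167598361 and chr1:167618015-167618264 on the plus strand, each ending at the base before the start. Crabp1, printed from chr9:54764498-54764747 on the plus strand, fell and has none of these hexamers in its window. Rara and Rxra hold hexamers and were not called, and no window was matched for Aldh1a3 or Crabp2.

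Rxrg, upstream start: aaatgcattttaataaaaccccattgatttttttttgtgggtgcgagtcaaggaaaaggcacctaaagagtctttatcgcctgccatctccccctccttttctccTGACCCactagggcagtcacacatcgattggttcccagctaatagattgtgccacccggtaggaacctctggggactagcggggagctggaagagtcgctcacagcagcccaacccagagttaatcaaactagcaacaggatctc

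Rxrg, downstream start: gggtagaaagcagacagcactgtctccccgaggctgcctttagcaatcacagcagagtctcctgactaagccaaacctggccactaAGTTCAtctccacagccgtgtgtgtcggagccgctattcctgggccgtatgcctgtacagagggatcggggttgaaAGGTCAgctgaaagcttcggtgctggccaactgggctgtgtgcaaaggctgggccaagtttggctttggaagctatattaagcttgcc

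Crabp1: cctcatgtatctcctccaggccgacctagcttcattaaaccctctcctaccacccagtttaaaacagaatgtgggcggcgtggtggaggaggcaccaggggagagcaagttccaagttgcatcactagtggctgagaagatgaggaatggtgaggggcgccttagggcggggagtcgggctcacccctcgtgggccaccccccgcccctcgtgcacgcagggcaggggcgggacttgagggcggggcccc

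The core site of the Meis group of homeodomain factors, TGACAG, was searched for as well, since Meis2 is the deleted gene. It occurred in 3 of the 15 windows, those of Rara, Rarb and Rxrb, and in 19.2% of all promoter windows. In Rarb it began 1 base after the first transcribed base. The homeodomain core TAATTA was in none of the 15 windows and in 5.29% of all windows. The windows also differed in base composition. G and C made up 65.0% of the Crabp1 window and 53.7% and 57.0% of the Rxrg windows, while the first Rxra window held 83.0% and the median over all windows was 52.7%. A match is a run of letters and no measured binding, and a window without one says nothing of distant elements.

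**Figure D2:**
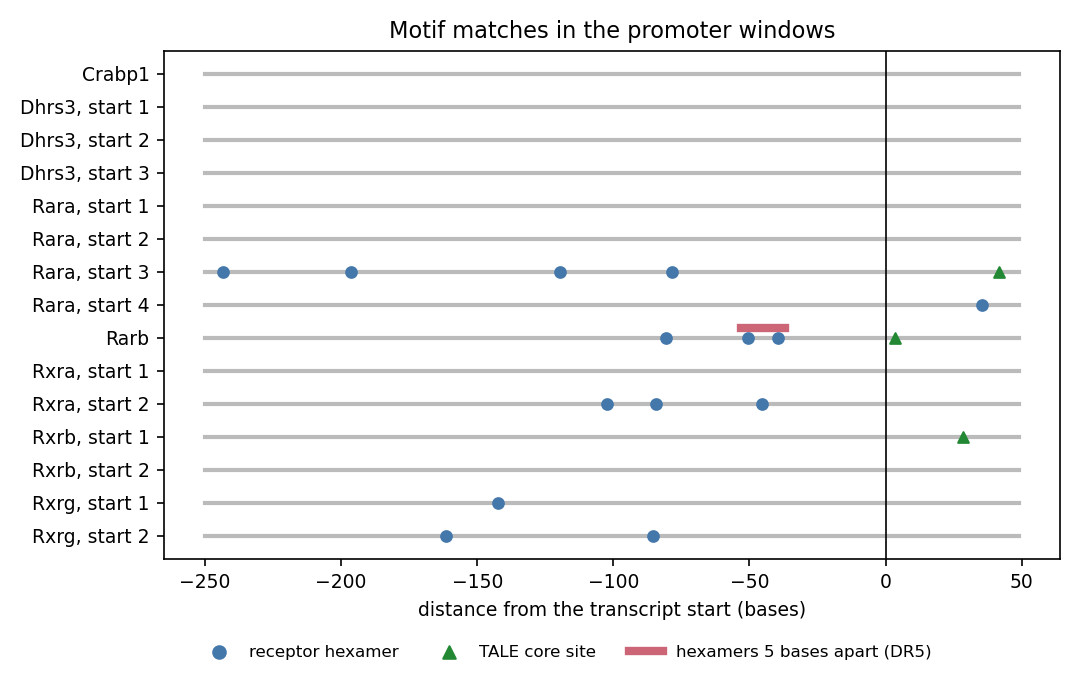
Positions of motif matches in the 15 RefSeq promoter windows of 7 genes, as distance from the transcript start in bases; grey lines are windows, circles receptor hexamers, triangles the TALE core site TGACAG, and the red bar the DR5. The DR5 appears in the Rarb window, just upstream of the start.

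Aldh1a3, the retinaldehyde dehydrogenase that makes retinoic acid, fell about as far as Rxrg on the log2 scale. The order of these 2 turns with a pseudocount of 1, which gives -2.21 for Aldh1a3 and -2.41 for Rxrg, and in absolute signal the difference was largest for Crabp1 (19.9 against 6.25 for Aldh1a3). In the authors' deposited table it averaged 6.96 in control and 0.715 in the mutant, so 10.3% of the control signal remained. The authors' log2 fold change was -3.06 with an adjusted p of 0.000279. This fold change is slightly smaller than the ratio of the means, which was -3.28 on the log2 scale. Aldh1a3 (ENSMUSG00000015134) spans chromosome 7, 66390890 to 66427517 on the minus strand of GRCm38. It went from the seventh highest of the 9 genes in control to the lowest in the mutant, and from percentile 46.8 to percentile 15.4 of all genes. Of 2189 protein-coding genes with a control mean within 1.5-fold of its own, 8 had a fold change as low or lower, itself included.

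The other genes listed for retinoic acid synthesis that had values were not called. In the authors' deposited table Rdh10, the main embryonic retinol dehydrogenase, averaged 2.79 in control and 2.66 in the mutant (log2 fold change -0.05). The related dehydrogenases Rdh11, at 14.3 and 15.0, and Rdh14, at 6.26 and 5.88, had log2 fold changes of 0.08 and -0.08 there. Adh5, an alcohol dehydrogenase gene, was the highest of the group at 90.7 and 92.1 in the same deposited table. Of 10 genes listed for this step 5 had values, and 1, Aldh1a3, was called. Aldh1a1 and Aldh1a2, the other retinaldehyde dehydrogenases of this list, were not among the 5 with values.

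Dhrs3 reduces retinaldehyde back to retinol and so lowers the supply for retinoic acid; it is itself known to be induced by retinoic acid. By the authors' deposited table it was the lowest of the 9 genes in control, at 1.19, and averaged 1.3 in the mutant (log2 fold change 0.13, p = 0.873 before adjustment). At this level the table called no protein-coding gene lower: of 1087 genes with a control mean within 1.5-fold of that of Dhrs3, 0 were called lower and 1 higher. Dhrs3 (ENSMUSG00000066026) lies on chromosome 4, 144892827 to 144928209. Cyp26b1, an enzyme that degrades retinoic acid, was not called, with an unadjusted p of 0.30 and low means of 0.743 and 0.237 by the authors' deposited table (its log2 fold change was -1.25). Dhrs4, a retinal reductase, stood at 13.9 and 16.2 there (log2 fold change 0.23, unadjusted p = 0.376). Of 8 genes listed for clearance and storage 5 had values, and none was called.

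Crabp1 and Crabp2 encode the pair of cellular retinoic acid binding proteins, and they parted. In the authors' deposited table Crabp1 averaged 24.9 in control and 4.96 in the mutant, a log2 fold change of -2.29 (adjusted p = 2.34e-11). Crabp2 stood at 15.9 and 17.0 in that table (log2 fold change 0.10, unadjusted p = 0.676). Crabp1 was thus 1.56 times the level of Crabp2 in control and 0.292 times its level in the mutant, although that reversal itself was not tested. Among the 16913 genes the p-value of Crabp1 ranked 26, the smallest of the 9. Only 2 of 2938 protein-coding genes with a control mean within 1.5-fold of that of Crabp1 had a fold change as low, itself included.

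Both binding protein genes were placed on GRCm38 by Ensembl identifier. Crabp1 (ENSMUSG00000032291) lies on chromosome 9, 54764748 to 54773110, with 802 nt of exon, and Crabp2 (ENSMUSG00000004885) on chromosome 3, 87948666 to 87953376, with 1322 nt. The longest run of bases their GENCODE M21 transcripts share is 11 nt. The fatty acid carrier Fabp5, which can also deliver retinoic acid, had by the authors' deposited table means of 280.3 and 262.8 (log2 fold change -0.08). Stra6, a retinol uptake receptor, stood at 5.36 and 4.45 there (log2 fold change -0.25). The Stra6-like gene Stra6l, outside the fixed lists, stood at 5.035 and 1.325 there. It was not called (log2 fold change -1.82, authors' adjusted p = 0.275). Of 9 genes listed for uptake and binding 7 had values, and Crabp1 was the one called.

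In the RAR family the fall was in Rarb. By the authors' deposited table it averaged 10.2 in control and 1.70 in the mutant, leaving 16.6% of the control signal (log2 fold change -2.49, adjusted p = 5.14e-05). Rara, the broadly expressed receptor of the family, stood at 8.91 and 8.80 in the same deposited table (log2 fold change -0.01, unadjusted p = 0.986). Rarg, the third RAR gene, was low in both genotypes there, at 1.60 and 1.65 (log2 fold change 0.05). In control Rarb and Rara were at similar levels, with a ratio of 1.15, and in Meis2-CKO the ratio was 0.193.

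Rarb (ENSMUSG00000017491) spans chromosome 14, 16430839 to 16819156 on the minus strand, and Rara (ENSMUSG00000037992) chromosome 11, 98927818 to 98974942. The value of Rarb carries a limit of its own. Its exons overlap those of Top2b, a topoisomerase gene on the opposite strand, over 1793 nt, which is 34.1% of the exon length of Rarb. Top2b had means of 156 and 157 in the authors' deposited table, and the labels do not state whether counting used the strand. Reads of Top2b and of Rarb in that stretch cannot be told apart without it. A further 227 nt overlap the antisense gene Gm48162, for which that table held no values.

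In the RXR family the fall was in Rxrg. By the authors' deposited table it averaged 10.5 in control and 1.17 in the mutant, leaving 11.1% (log2 fold change -3.03, adjusted p = 1.57e-06). Rxrb was the most abundant receptor gene of either family in both genotypes, at 39.8 and 38 in the same deposited table (log2 fold change -0.05, unadjusted p = 0.737). Rxra stood at 6.62 and 6.87 there (log2 fold change 0.06, unadjusted p = 0.869). The level of Rxrg was 1.59 times that of Rxra in control and 0.170 times in the mutant, while Rxrb was at 6.01 and 5.53 times the level of Rxra.

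The RXR genes lie on 3 chromosomes of GRCm38: Rxrg (ENSMUSG00000015843) on chromosome 1, 167598384 to 167639623, Rxrb (ENSMUSG00000039656) on chromosome 17, 34031812 to 34038399, and Rxra (ENSMUSG00000015846) on chromosome 2, 27676440 to 27762957. Paralogous receptors can share reads. The longest identical run between transcripts of the fallen and the other receptors was 27 nt for Rxrg with Rxra and 20 nt with Rxrb, and 17 nt for Rarb with Rara and 23 nt with Rarg. The read length and the handling of reads with several matches are not given in the sources used here.

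**Figure D3:**
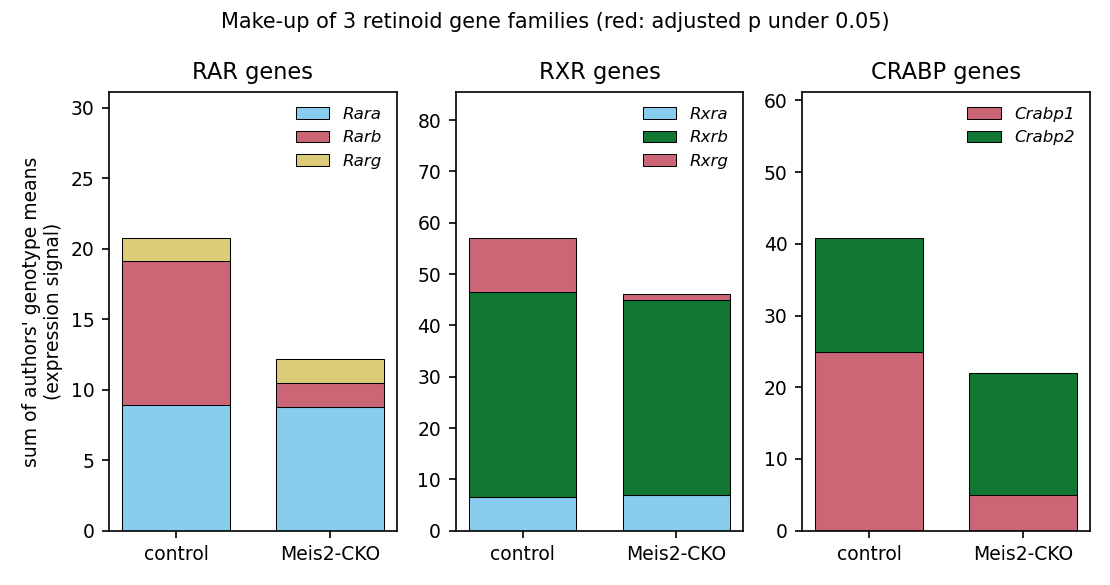
Sum of the authors' genotype means (expression signal) of the RAR, RXR and CRABP genes in control and Meis2-CKO, stacked by gene; red marks the gene with an authors' adjusted p under 0.05. The red segment shrinks in each family while the other segments keep nearly the same height.

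Seen by family, the make-up of receptors and carriers differed between the genotypes. Rarb held 49.4% of the summed RAR signal in control and 14% in Meis2-CKO, and Rara 43.0% and 72.4%, as computed from the authors' deposited table. For the RXR genes the share of Rxrg was 18.5% and 2.54%, and that of Rxrb 69.9% and 82.5%. The share of Crabp1 in the CRABP sum was 61.0% and 22.6%. In absolute terms the RAR sum was 20.8 and 12.2 and the RXR sum 57.0 and 46.0 in that table. Without the fallen gene of each family, the remaining RAR genes summed to 10.5 and 10.4 in control and mutant, and the remaining RXR genes to 46.4 and 44.9. These sums and shares are descriptions without a test.

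The order of levels changed accordingly. In control the 9 genes ran from Rxrb (39.8) through Crabp1 (24.9), Crabp2 (15.9), Rxrg (10.5), Rarb (10.2), Rara (8.91), Aldh1a3 (6.96) and Rxra (6.62) to Dhrs3 (1.19) in the authors' deposited table. In Meis2-CKO the order was Rxrb (38), Crabp2 (17.0), Rara (8.80), Rxra (6.87), Crabp1 (4.96), Rarb (1.70), Dhrs3 (1.3), Rxrg (1.17) and Aldh1a3 (0.715). The 4 fallen genes took 4 of the last 5 places there. Rxrg and Rarb in control, and Rarb, Dhrs3 and Rxrg in the mutant, lie too close to be ordered without a spread between embryos.

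For the 5 genes that did not pass, the table shows what it could call at their level. Among protein-coding genes with a control mean within 1.5-fold of that of Rxrb, the smallest fall called had a log2 fold change of -0.71, and for Crabp2 it was -0.89. Near Rara and near Rxra it was -1.60. The authors' p-values lean high, with a median of 0.760 over all genes. Smaller differences in Rara, Rxra, Rxrb, Crabp2 or Dhrs3 are therefore not excluded by these calls.

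**Figure D4:**
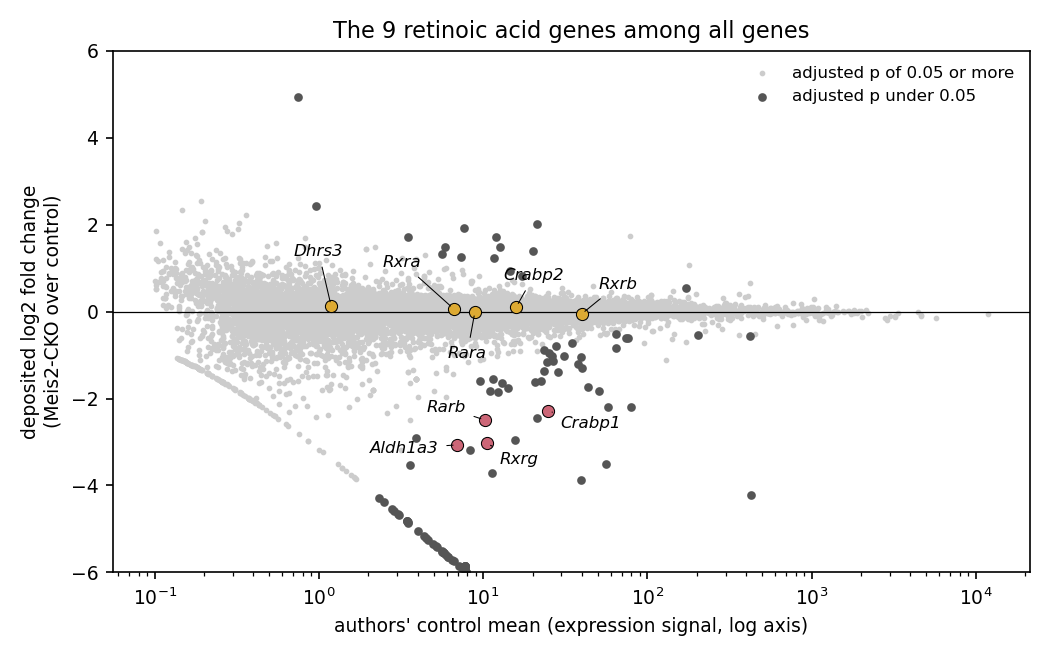
Deposited log2 fold change (Meis2-CKO over control) against the authors' control mean (expression signal, log axis) for 16693 genes; 220 genes with a control mean under 0.1 or a log2 fold change beyond 6 in size are not drawn. Grey points have an adjusted p of 0.05 or more and dark points less; the 4 fallen retinoic acid genes (red) lie below the cloud and the other 5 (yellow) within it.

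By the position in this plane, the called genes most like each fallen gene were named from 47 candidates among the 132 called genes. Likeness was the distance in log2 control mean and log2 fold change over the 2 genotype means. Called genes with Gm or Rik symbols, on the Y chromosome or without control signal were left out. For Crabp1 the 2 nearest were Ebf1, a helix-loop-helix factor of striatal neurons (21.3 and 3.75 in the authors' deposited table), and Vstm2a (20.7 and 6.58). For Rxrg they were Eif3j2 (8.28 and 0.790) and Rarb, and for Rarb they were Rxrg and the neurofilament gene Nefl (11 and 2.99). For Aldh1a3 they were Eif3j2 and Rxrg. Rarb and Rxrg were thus each among the 2 nearest of the other. With 2 means per gene this likeness is a weak measure.

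The wider pathway, as far as the fixed lists cover it, gave no further call. Stra6l, given above, is outside these lists and so outside the counts that follow. Of 66 genes fixed by role, 47 had values and 38 of these are outside the 9 genes; 0 of the 38 passed in the authors' deposited table, and 0 had an unadjusted p under 0.05. Beside the 0.544% and 0.237% of all genes called lower and higher, a count of 0 among so few genes, here and in the lists that follow, is near the background and says nothing particular of them. Their log2 fold changes had a median of 0.02, with 16 below 0 and 22 above, and 36 of 38 lay within 0.3 of 0. The exceptions were Cyp26b1 and Rbp4, a retinol carrier that stood at 0.220 and 0.090 in that table. Partners of RXR were among them: by the authors' deposited table the thyroid hormone receptor gene Thra had means of 158 and 149 (log2 fold change -0.07, unadjusted p = 0.559), and the orphan receptor gene Nr4a1 2.77 and 2.22 (log2 fold change -0.29). None of the 7 RXR partners with values was called.

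Coregulators of the receptors gave no call either. In the authors' deposited table the corepressor gene Ncor1 had means of 82.8 and 90.5 (log2 fold change 0.14) and the coactivator gene Ep300 28.1 and 32.7 (log2 fold change 0.23), with unadjusted p of 0.224 and 0.210. Of 14 coregulators with values 0 were called, and 10 had a log2 fold change above 0. Of 10 genes with values that are known to be induced by retinoic acid in one tissue or another, Rarb was the 1 that fell. In the authors' deposited table the others included Crabp2, Dhrs3, Stra6 and Cyp26b1, given above, and Tgm2, a transglutaminase gene, at 1.22 and 1.20 (log2 fold change -0.01). The median of this list was -0.004.

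**Figure D5:**
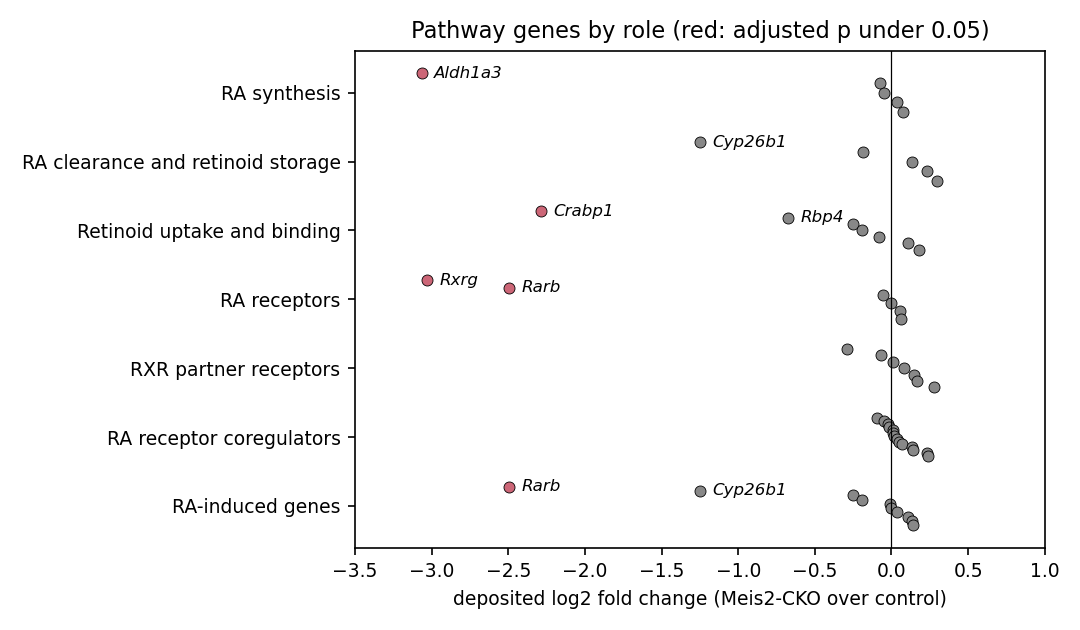
Deposited log2 fold change (Meis2-CKO over control) of pathway genes by role, 1 point per gene, with vertical spacing only to separate points; red marks an authors' adjusted p under 0.05. The red points, Aldh1a3, Crabp1, Rxrg and Rarb (shown under both lists that hold it), lie below -2, and most grey points lie near 0.

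Values of other genes stand beside these falls. Per the authors' deposited table Meis2 itself averaged 204 and 140, 68.7% of control (adjusted p = 0.00195), a smaller change than in any of the 4 genes. The control already carries Cre with a single floxed allele, and cells outside the Cre lineage keep intact alleles. This share therefore does not measure the loss of Meis2 in the Cre lineage. Of 15 LGE and striatal markers, all with values, 5 fell: Isl1 (21.6% of control remained), Ebf1 (17.6%), Foxp1 (40.0%), Zfp503 and Bcl11b. In bulk tissue, fewer striatal neurons and less RNA per neuron cannot be told apart, and this holds for the 4 fallen genes too. Progenitor markers (6 genes) summed to 777 in control and 878 in the mutant, and pallial markers (6 genes) to 185 and 215 in that table, with no gene called and all 12 log2 fold changes above 0. Meningeal fibroblast markers, from a cell type known as a source of retinoic acid, were low: 7 of 8 had values, summing to 8.23 and 5.66, 5 lay below 0 and none was called. Eif2s3y (50.5 and 14) and Ddx3y (14.1 and 4.03), of the Y chromosome, were called lower in the authors' deposited table. The Y-linked Kdm5d (13.1 and 4.09) was called lower as well, while Uty (6.60 and 2.36), also Y-linked, was not called. Xist averaged 78.0 and 256 and was not called (adjusted p = 0.985). Y-linked genes and Xist follow the sex of an embryo, which the labels do not give. A different share of male embryos in the groups cannot be told apart from genotype here, for the 4 fallen genes too. The part of these differences in the falls of the 4 retinoic acid genes was not tested.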

How the data were processed

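RNA-seq of 8 samples (4 control, 4 Meis2-CKO) is held as 1 table of 16913 genes. The submitters' processing notes name HISAT2 2.1.0, StringTie 1.3.1 and FastQC 0.11.5, and mm10 and GRCm38.p2, with no role for any. Per the file headers, the authors deposited a mean expression signal per genotype (no unit named), a log2 fold change, and a p-value with its adjusted form. For the last 2 the sources used here name no tool. Recomputing the Benjamini-Hochberg adjustment over all 16913 genes returned the same adjusted p. A further 8 columns of values per library have names that match no sample label and were not used. The planned limma model, left-out libraries and replicate block were therefore not run, no SD is given, and depth is unknown.

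Calls are the authors' adjusted p under 0.05. Gene places, exon lengths and transcripts came from GENCODE M21 (GRCm38, 16861 genes matched by identifier) and promoters from RefSeq (GRCm38.p6). The genes and lists were chosen with earlier results of these data known. Named genes were the 9 members, Meis2 and called genes of each pathway list (or the 2 with the smallest p). For each called member the 2 nearest called genes were named too. Genes with Gm or Rik symbols, on the Y chromosome or without control signal were left out of that search. The result for 1 further gene of the lists is not reported separately. Marker lists were named by their called members and sums. Other genes named are background to a role and were chosen after their values were seen. Adjustment, motif and overlap code was tested on simulated data. The software was matplotlib 3.10.9, scipy 1.17.1, pandas 2.3.3 and numpy 2.4.6 under Python 3.11.15.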

Additional observations from a re-analysis of the deposited data

How the results depend on the processing

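Aldh1a3, Crabp1, Rarb and Rxrg remained the 4 genes called lower under each of 6 alternatives: an adjusted p under 0.01, a fold change of at least 1.5, a mean of at least 1, the Benjamini-Yekutieli adjustment, genes of 300 nt or more, and removal of Y-linked genes and Xist. All 6 reuse the deposited p-values, and the largest adjusted p of the 4 genes was 0.000279 (Aldh1a3). These alternatives could therefore hardly change the 4 calls. They do not test alignment or counting, and removing Y-linked genes and Xist leaves the p-values of the 4 genes as they were. Calls over all genes ranged from 51 (genes of 300 nt or more, adjusted again) to 134, beside 132 as deposited. All 9 log2 fold changes kept their sign after centring on the median and with pseudocounts of 1 and of 0.1. A pseudocount of 1 gave -2.21 for Aldh1a3, -2.41 for Rxrg, -2.06 for Rarb and -2.12 for Crabp1. No paired analysis was possible because the result comes from the authors' own genotype means and p-values, with no column tied to a numbered sample; leaving out single libraries was not run for the same reason.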

Other observations

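The DR5 search reached genes beyond the retinoic acid pathway. Of the genes with a DR5 in a RefSeq promoter window, 9 had values in the authors' deposited table, Rarb among them. The median log2 fold change of the 9 was -0.55, and -0.39 without Rarb, the gene that prompted the search; 7 of the 9 lay below 0, and Rarb was the 1 called. The 3 others with a control mean over 4 lay near 0 in the authors' deposited table: Gm4631 (14.6 in control, log2 fold change -0.03), Blvrb (6.32, 0.02) and Hbb-y (318.5, 0.04). Lower means in Meis2-CKO were found among weakly expressed genes that did not pass: Prokr2, a prokineticin receptor gene, at 1.45 in control and 0.580 in Meis2-CKO, Gm1043 at 2.19 and 0.890, Gm14133 at 0.525 and 0.043, and Syndig1, a synapse differentiation gene, at 3.60 and 2.40. Their unadjusted p-values in the authors' deposited table were 0.219, 0.137, 0.166 and 0.337. Control means were under 4 for 5 of the 9 genes, and Gm14133 and Syndig1 are neighbours on chromosome 2, so the genes are not independent points. The 29 genes with a DR1 had a median of 0.03 and the 12 with a DR2 a median of -0.06, with 0 called in either group and 0 at an unadjusted p under 0.05. Whether the groups differ was not tested, and these genes were looked at after the values of Rarb were known.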
